A study of Mus musculus with 2 samples.

Results

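Immediate early genes are switched on within minutes of a signal reaching a cell, and together with the inducible Hsp70 genes they are the transcripts most often read as a trace of handling when living tissue is taken apart for single-cell sequencing. To examine where such transcripts were found in the fetal mouse brain, 10 genes were followed: Fos, Fosb, Jun, Junb, Egr1, Ier2, Atf3, Dusp1, Hspa1a and Hspa1b. They were chosen by symbol among the 32285 genes of the count tables. The data were single-cell transcriptomes of the dorsal telencephalon, the part of the embryonic brain that forms the cerebral cortex, at embryonic day (E) 16.5. The study was set up around an Emx1-Cre conditional knockout of Dot1l, but only wild-type (WT) embryos were analysed here, so there was 1 group of 2 libraries, named by the labels' numbers WT replicate 1 and WT replicate 6. The embryos were of the C57BL6/J strain. All cells of both libraries went through papain dissociation before capture. What was present in the embryo and what arose during dissociation therefore cannot be told apart in these data.

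The immediate early genes among the members work in a linked series, and the Hsp70 genes are switched on separately. Signals such as growth factors, calcium entry or cell stress act through kinases on factors already bound to DNA, and within minutes these switch on Fos, Jun and Egr1 without new protein synthesis. FOS-family and JUN-family proteins pair to form AP-1, a transcription factor that carries the response to later genes. DUSP1 is a phosphatase that removes the activating phosphates from the same kinases and so closes the response, ATF3 is a stress-induced factor of the ATF/CREB family, and IER2 is a small nuclear protein of the early response. Hspa1a and Hspa1b encode the inducible form of HSP70, a chaperone that binds unfolded protein, and are switched on by heat-shock factor rather than by AP-1. In brain preparations, microglia are known for responding in this way to enzymatic dissociation.

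The 250 bases before the RefSeq start of each gene (assembly GRCm38.p6) are shown for 4 members, because they carry the short motifs of the 2 arms of the response. A sequence was found for 8 of the 10 members, and none was found for Egr1 and Ier2. Capitals in Fos and Dusp1 mark TGACGT, the core of the cyclic AMP response element, searched on both strands. Capitals in Hspa1a and Hspa1b mark GAANNTTC, the core of the heat-shock element, which reads the same on both strands.
Fos (chr12:85473640-85473889, + strand): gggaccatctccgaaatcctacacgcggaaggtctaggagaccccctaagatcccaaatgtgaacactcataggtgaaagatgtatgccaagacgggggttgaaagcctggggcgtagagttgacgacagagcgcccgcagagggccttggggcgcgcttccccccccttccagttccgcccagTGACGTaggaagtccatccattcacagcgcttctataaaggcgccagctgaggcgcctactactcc
Dusp1 (chr17:26508473-26508722, - strand): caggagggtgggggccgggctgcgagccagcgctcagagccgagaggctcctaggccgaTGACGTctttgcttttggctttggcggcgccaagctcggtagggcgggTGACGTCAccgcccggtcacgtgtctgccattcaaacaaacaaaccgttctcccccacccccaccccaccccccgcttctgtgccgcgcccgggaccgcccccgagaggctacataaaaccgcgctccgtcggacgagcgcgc
Hspa1a (chr17:34972157-34972406, - strand): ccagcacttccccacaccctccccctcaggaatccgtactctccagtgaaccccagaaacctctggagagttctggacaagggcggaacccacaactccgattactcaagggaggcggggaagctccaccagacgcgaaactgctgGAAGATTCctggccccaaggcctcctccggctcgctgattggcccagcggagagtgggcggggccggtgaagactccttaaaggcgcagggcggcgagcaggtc
Hspa1b (chr17:34959239-34959488, - strand): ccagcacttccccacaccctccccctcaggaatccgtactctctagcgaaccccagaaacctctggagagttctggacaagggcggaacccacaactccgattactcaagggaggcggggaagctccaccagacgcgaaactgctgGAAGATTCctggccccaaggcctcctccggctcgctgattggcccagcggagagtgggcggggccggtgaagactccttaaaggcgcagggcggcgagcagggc

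TGACGT was found in Fos, Dusp1 and Atf3, and in 6.47% of 32841 promoters of the same length. The second Dusp1 match is a full palindrome and counts on both strands, which gave Dusp1 3 matches. GAANNTTC was found in Hspa1a, Hspa1b and Jun, and in 6.70% of all promoters. The windows of Hspa1a and Hspa1b were identical at 247 of 250 bases. The transcripts of this gene pair are likewise near-identical copies, so reads can be split between them or lost in counting, and the division between Hspa1a and Hspa1b is uncertain at every value below. TGANTCA, the AP-1 site, was found in none of the 8 windows, against 6.75% of all promoters.

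The libraries held 14136 and 13046 called barcodes with 74930397 and 68964234 unique molecular identifiers (UMIs, each standing for 1 captured mRNA molecule). The filters kept 8139 barcodes in WT replicate 1 and 8209 in WT replicate 6, those of 1500 to 60000 UMIs with a mitochondrial share below 10%. Doublets were not removed, and 59 barcode sequences occurred in both libraries. Cells were assigned to classes by counting detected markers, 8 per class, and none of the 10 members was a marker. Each class name stands for cells like that type by these markers, for the neural classes as well. Neural cells numbered 6460 and 6681, microglia-like cells 87 and 98, vascular-like cells 203 and 183, and fibroblast-like cells 106 and 108, with 15.5% and 13.4% of kept cells left without a class. Among the 10 genes with the highest fold of each class were 2 to 5 of its own markers and 0 of another class. Cell types without a marker list could not show in this count. The 10 of the radial glia class held 2 of its markers and began with Ttr, a choroid plexus gene, and no choroid plexus class was gated. The 10 of the microglia-like class began with Pf4 and held Mrc1 and F13a1, genes of border-associated macrophages, beside C1qa, C1qb and C1qc, so the name here covers brain macrophages of both kinds. Among 9 further genes outside the marker lists were P2ry12, a microglial receptor, at 450 and 397 CPM (UMIs per 1000000 UMIs of the class) in microglia-like cells and Kdr, an endothelial receptor, at 775 and 858 CPM in endothelial-like cells. Anpep, of pericytes, was as high in fibroblast-like (51.2 and 66.5 CPM) as in mural-like cells (53.0 and 52.0 CPM), and the hemoglobin gene Hbb-bs gave 1753 and 2331 CPM in neural and 879 and 3233 CPM in microglia-like cells, against 365430 and 399425 CPM in erythroid-like cells. The summed 8 excitatory-neuron markers stood at 403 and 254 CPM in microglia-like cells, against 2217 and 2304 CPM in neural cells. The libraries gave 76258 and 10 Xist UMIs and, for the Y-linked gene Ddx3y, 5 and 2193, so the libraries also differ in the sex of the embryo.

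To ask which cells carried the response, UMIs were summed per library and class, and the quasi-likelihood test of edgeR was run on the 2 sums of each class, with p-values adjusted by the Benjamini-Hochberg method across every gene tested. All 10 members were higher in microglia-like than in neural cells, where 20.6% of the 17362 genes tested were higher and 45.0% changed in either direction. The median log2 change of the members was 4.72, beside -0.30 over all genes tested. Hspa1a and Hspa1b, the chaperone genes, showed the widest gap. Hspa1a was at 967 and 843 CPM in microglia-like cells of WT replicate 1 and WT replicate 6, and at 3.79 and 3.37 CPM in neural cells. Hspa1b was at 470 and 392 CPM against 2.89 and 1.47 CPM. For Hspa1a the libraries of a class lay close together, Hspa1b differed between the neural libraries, and for both genes the classes lay far apart, with log2 changes of 8.10 ± 0.19 (SE, n = 2 against 2, adjusted p = 4.7e-09, edgeR) and 7.74 ± 0.29 (adjusted p = 7.5e-08, edgeR). Microglia-like cells made up 1.07% and 1.19% of kept cells and held 55.2% and 63.4% of all Hspa1a UMIs.

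**Figure D1:**
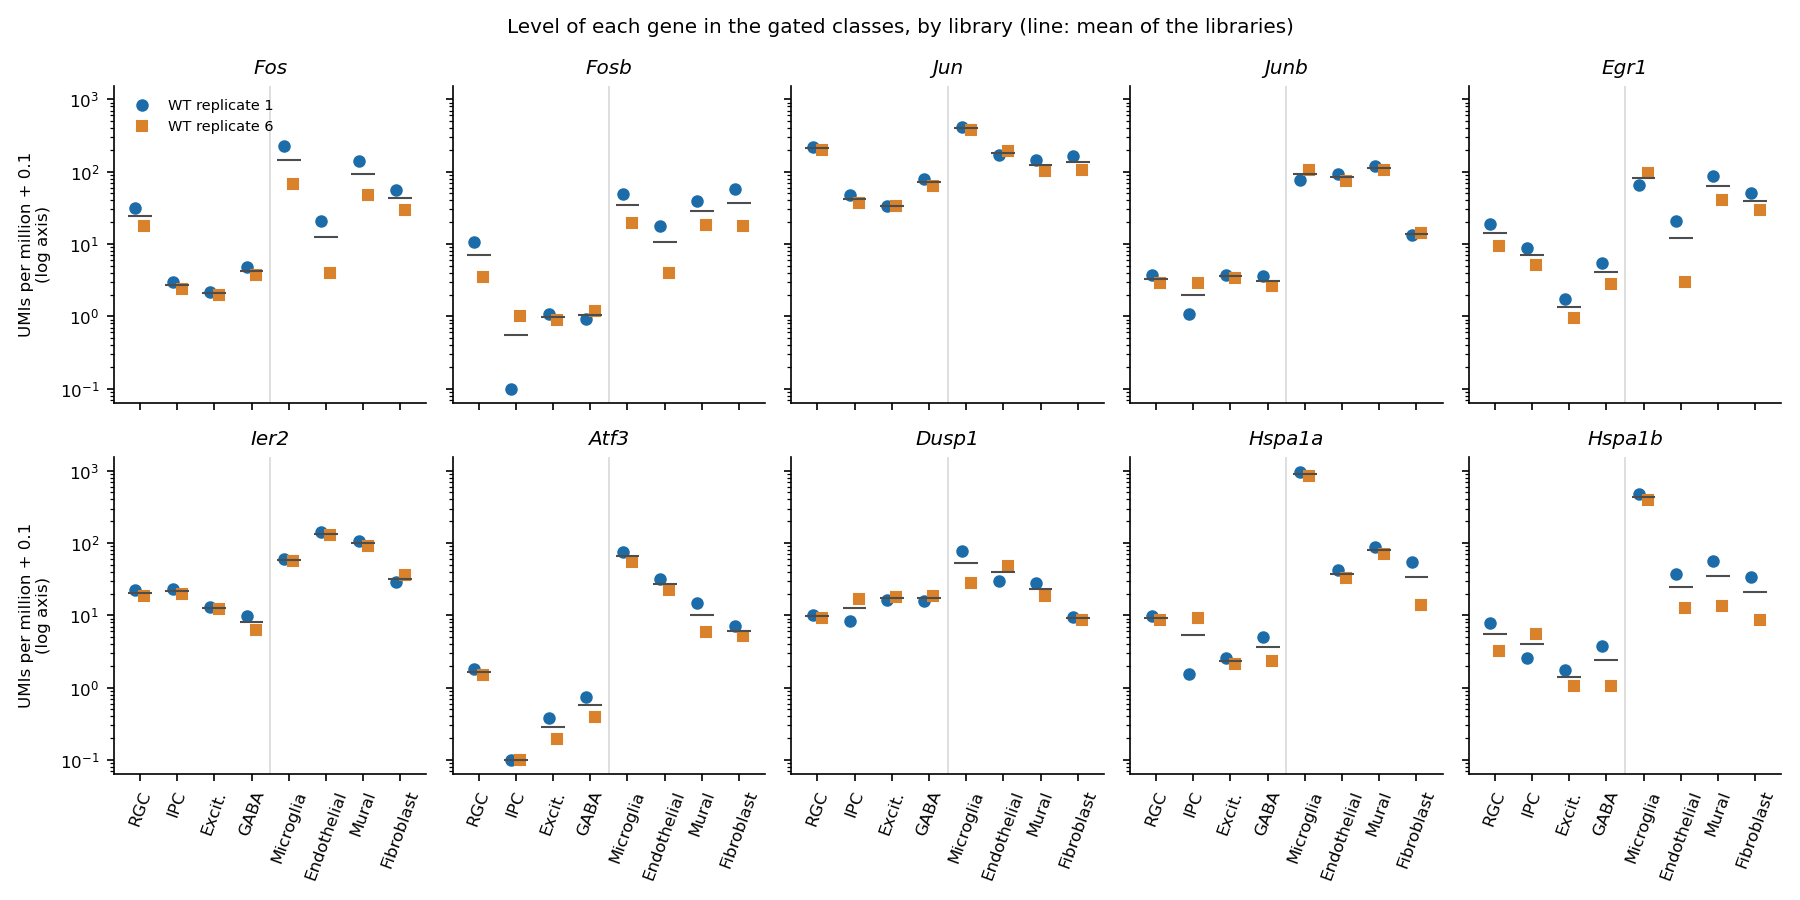
Level of the 10 genes in 8 classes, as CPM plus 0.1 on a log axis, with a point per library and a line at the mean of both. Hspa1a in microglia-like cells stands at 967 and 843, above its points in every other class drawn, whereas Jun is high in radial glia (218 and 201) as well as in microglia-like cells.

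The AP-1 genes were higher in microglia-like cells too, but not all from a low neural level. Fos was at 226 and 66.7 CPM in microglia-like cells against 6.63 and 3.98 CPM in neural cells, a log2 change of 4.91 ± 0.45 (adjusted p = 2.2e-05, edgeR). The libraries of the microglia-like class differed from each other here, yet both lay above both neural sums. Fosb, a close relative of Fos, rose by 4.53 on the log2 scale and Junb by 4.95. Jun was readily found in neural cells, at 67.4 and 59.1 CPM, and reached 415 and 379 CPM in microglia-like cells, a log2 change of 2.77 ± 0.13 (adjusted p = 3.2e-07, edgeR).

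Atf3 was at 76.1 and 54.2 CPM in microglia-like cells and almost not found in neural cells, with 31 and 15 UMIs in all and 0.557 and 0.279 CPM. Its log2 change of 7.39 ± 0.37 (adjusted p = 4.7e-07, edgeR) was close to those of the chaperone genes. Egr1, a zinc-finger factor of the early response, was at 64.3 and 97.2 CPM against 5.34 and 2.64 CPM. Ier2 stood at 60.4 and 55.5 CPM against 14.02 and 12.2 CPM. Dusp1, the phosphatase, changed least on the log2 scale among the members, by 1.87 ± 0.33 (adjusted p = 0.0014, edgeR). Its microglia-like sums were 77.4 and 27.8 CPM, and its neural sums 14.9 and 16.7 CPM, so that the microglia-like libraries differed more from each other than the neural ones did. Without WT replicate 1 the log2 difference was 0.88 for Dusp1, 4.197 for Fos and 5.33 for Egr1, and without WT replicate 6 it was 2.49 for Dusp1 and 3.69 for Egr1, each a value with no test.

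**Figure D2:**
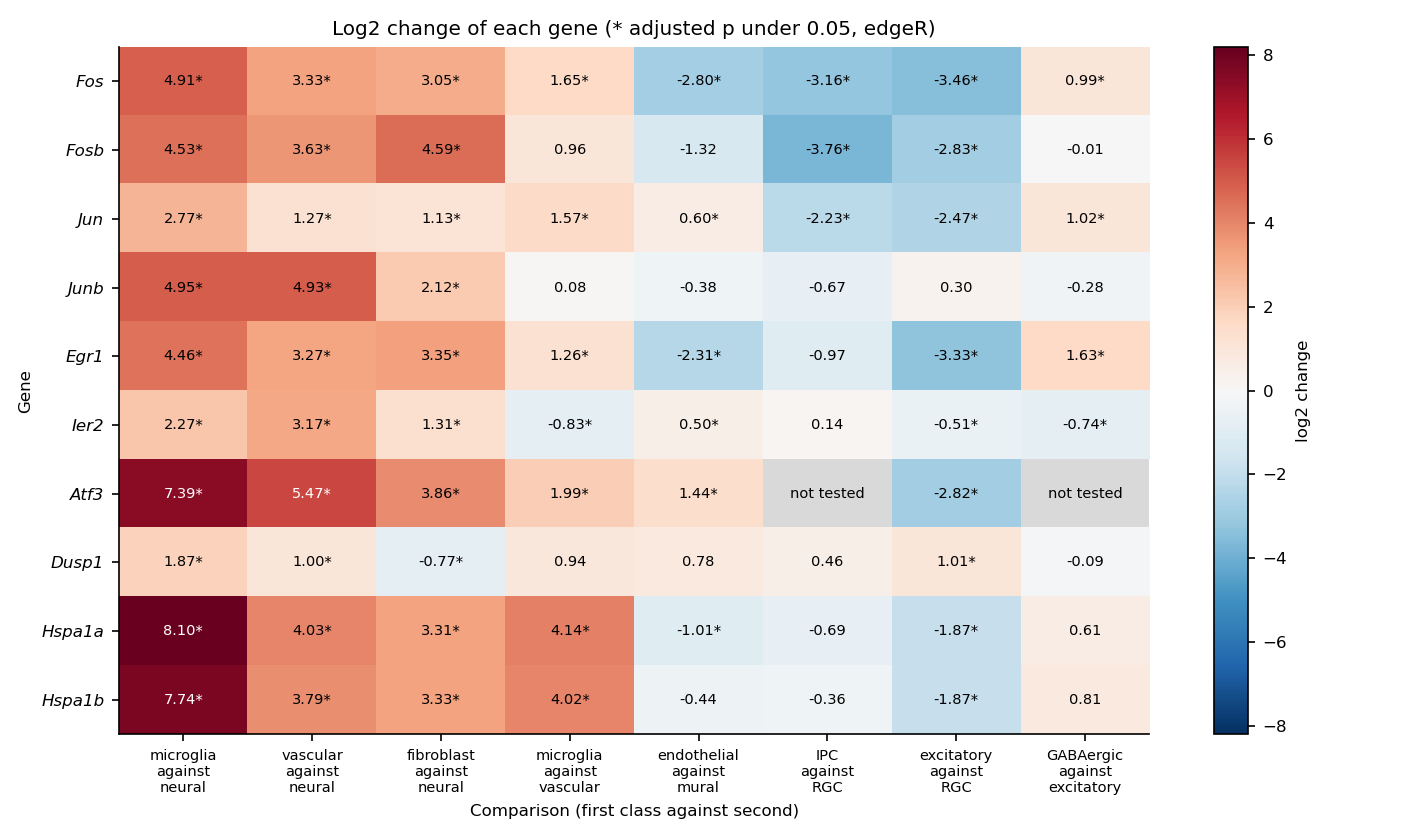
Log2 change of each gene in 8 comparisons of cell classes, colour and number giving the edgeR estimate and an asterisk an adjusted p under 0.05. The 3 columns against neural cells are positive except for Dusp1 in fibroblast-like cells (-0.77), while most values of the excitatory neuron column against radial glia are negative.

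The class sum hid a split among single microglia-like cells. A Hspa1a UMI was found in 28 of 87 cells of WT replicate 1 and in 25 of 98 cells of WT replicate 6, which is 32.2% and 25.5%. In these cells the median was 14 and 18 Hspa1a UMIs, with up to 75 and 66, and the other cells had 0. The 9 and 10 cells with most held 71.2% and 80.4% of all Hspa1a UMIs of the class. No Hspa1a UMI was found in the 24 and 37 erythroid-like cells. Their medians were 6602.5 and 7298 UMIs per cell, against 8038 and 6957.5 in microglia-like cells. Hbb-bs alone took 365430 and 399425 CPM of the erythroid-like class, which leaves fewer UMIs for other genes. Finding 0 of 24 and 0 of 37 cells allows shares of up to 12.5% and 8.11%. As levels, the 0 counts allow up to 17.6 and 11.0 CPM, above the neural Hspa1a levels of 3.79 and 3.37 CPM. They therefore cannot tell erythroid-like from neural cells.

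The other members followed Hspa1a from cell to cell. Cells with a Hspa1a UMI held 49.5% and 39.7% of the UMIs of microglia-like cells, but 89.5% and 95.8% of their Fos UMIs, 87.7% and 85.0% of Jun and 91.8% and 91.4% of Egr1. For Dusp1 the counts were 59 against 0 UMIs in WT replicate 1 and 18 against 2 in WT replicate 6. For Fosb they were 34 against 3 and 14 against 0. The early genes and the chaperone genes were thus found mostly in the same cells, and Jun stood at 734 and 812 CPM in cells with Hspa1a and at 101.4 and 94.4 CPM in cells without. Cells with a Hspa1a UMI were also deeper, with medians of 11130 and 11081 UMIs per cell against 3875 and 4714.

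To take depth out of the comparison, each cell was thinned to 1500 UMIs. A Fos UMI was then found in 13 and 9 microglia-like cells, of which 69.2% and 77.8% also had Hspa1a, against 12.2% and 16.9% of the cells without Fos. Jun was found in 61.5% and 88.9% of cells with Fos and in 16.2% and 19.1% of cells without. Hspa1b was found in 88.9% and 68.2% of the 18 and 22 cells with Hspa1a, and in 8.70% and 0% of the others. At least 3 of the 10 members were found together in 20.7% and 16.3% of thinned microglia-like cells, and in 1.21% and 0.493% of thinned radial glia. In thinned vascular-like and fibroblast-like cells the means of both libraries were 6.57% and 3.76%. Before thinning the mean was 29.9% in microglia-like cells, below 42.6% in vascular-like and 33.7% in fibroblast-like cells.

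**Figure D3:**
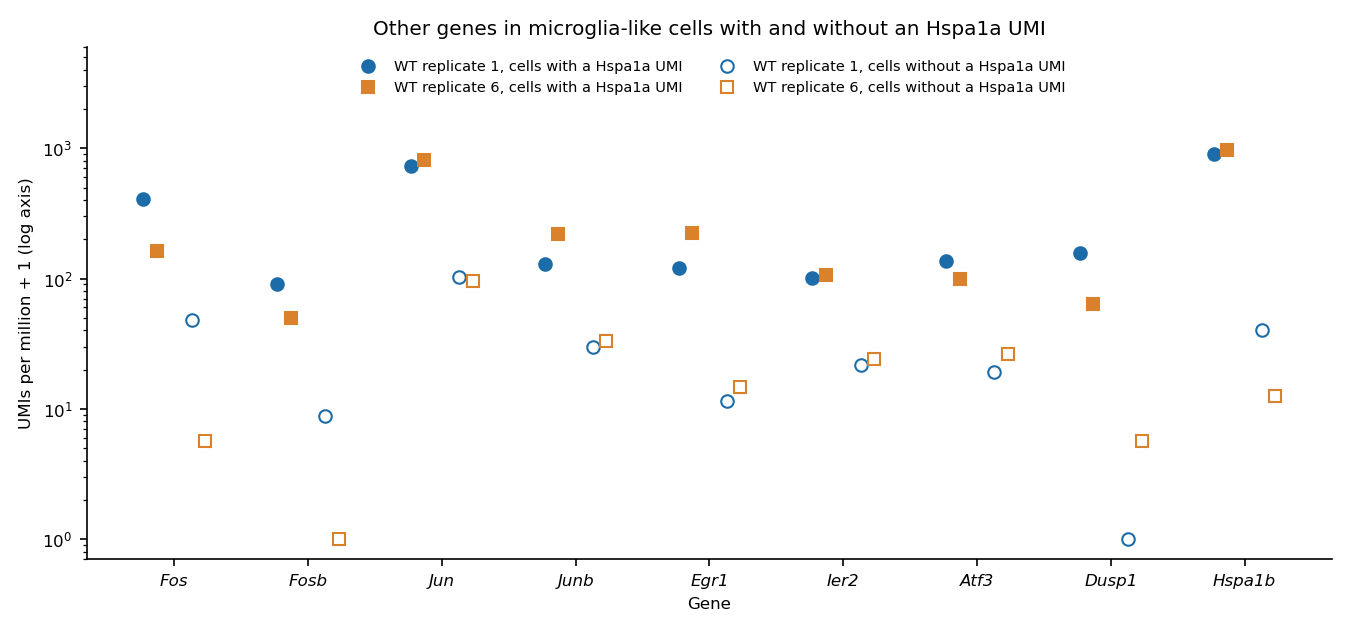
Level of 9 genes, as CPM plus 1 on a log axis, in microglia-like cells with (filled) and without (open) a Hspa1a UMI, for WT replicate 1 (circles) and WT replicate 6 (squares). Every filled point lies above the open points of its gene, for example Jun at 734 and 812 against 101.4 and 94.4.

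The microglia gate counts markers shared by all brain macrophages, so its cells were divided further by 4 genes of border-associated macrophages that the gate did not use, Mrc1, Pf4, Lyve1 and F13a1. This division was chosen after the values were seen and is given as a description. Cells with at least 2 of the 4 numbered 40 and 37, and the remaining 47 and 61 had more P2ry12, at 833 and 664 CPM against 161 and 148 CPM. Hspa1a stood at 1622 and 1363 CPM in the cells with macrophage markers and at 100.6 and 287 CPM in the others. Fos stood at 364 and 113 CPM against 42.7 and 17.2 CPM, and Jun at 650 and 605 CPM against 104 and 138 CPM. Of the 10 members, Egr1, Junb and Fosb did not keep 1 order between libraries. Egr1 stood at 55.3 CPM against 76.2 CPM in WT replicate 1 and 151 CPM against 40.2 CPM in WT replicate 6. Junb stood at 104 CPM against 42.7 CPM in WT replicate 1 and at 91.4 CPM against 121 CPM in WT replicate 6, and Fosb at 78.4 CPM against 9.15 CPM and at 18.8 CPM against 20.1 CPM. Median depth differed between the subsets, at 9612 and 10556 UMIs against 3875 and 4521. Among cells with at least 5000 UMIs the levels of Hspa1a were 1680 and 1420 CPM against 122 and 379 CPM, with a Hspa1a UMI in 64.7% and 53.3% of cells against 26.1% and 28.6%. With each cell thinned to 1500 UMIs, a Hspa1a UMI was found in 16 of 40 cells with macrophage markers against 2 of 47 others in WT replicate 1, and in 15 of 37 against 7 of 61 in WT replicate 6.

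**Figure D4:**
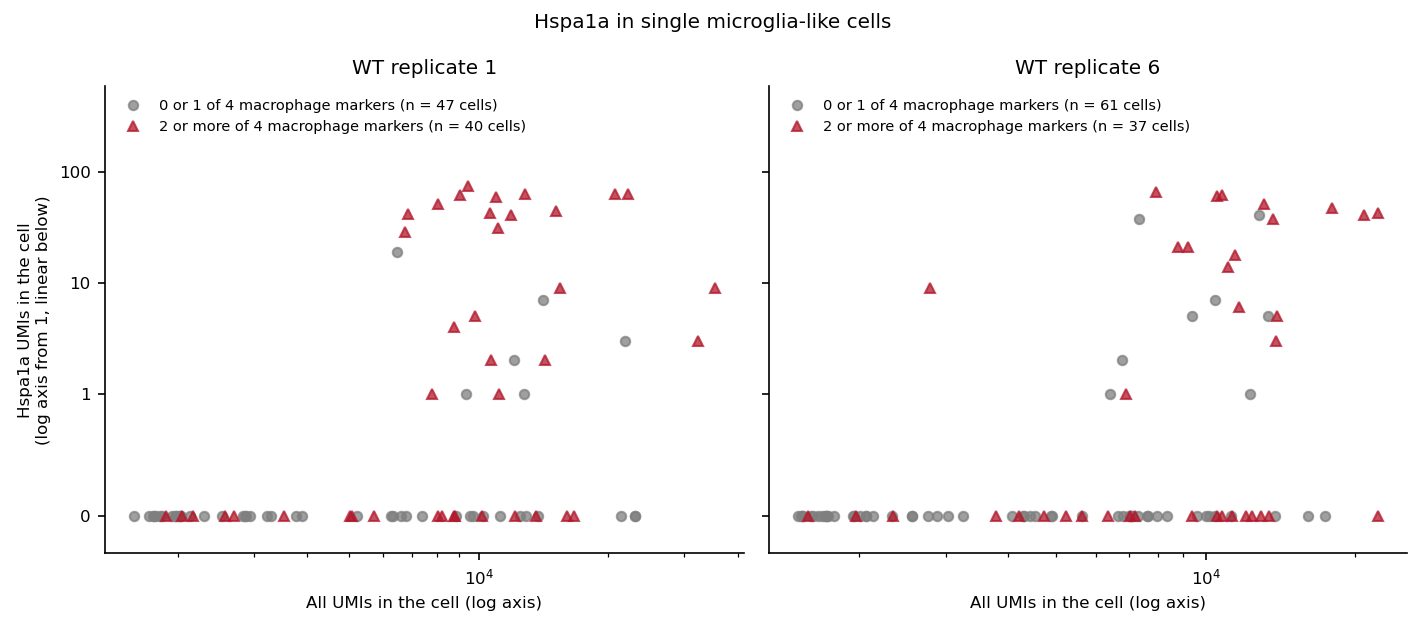
Hspa1a UMIs of each microglia-like cell against all UMIs of the cell (log axes, linear below 1 for Hspa1a), with red triangles for cells with 2 or more of 4 macrophage markers and grey circles for the others. With at least 10 Hspa1a UMIs there are 13 cells with macrophage markers and 1 without in WT replicate 1, and 12 and 2 in WT replicate 6.

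Vascular-like cells also had all 10 members higher than neural cells, in a comparison where 26.3% of 18010 genes were higher, 27.4% lower and 53.7% changed in either direction, with a median log2 change of 3.48 over the members and -0.11 over all genes. Atf3 had the largest log2 change, 5.47, from a neural level near 0 to 23.3 and 13.8 CPM. Junb, an AP-1 partner, stood at 107 and 89.2 CPM against 3.40 and 3.03 CPM in neural cells, a log2 change of 4.93 ± 0.13 (adjusted p = 6.1e-08, edgeR), and 43.2% and 39.4% of all Junb UMIs came from the 2.49% and 2.23% of kept cells in this class. Ier2 stood at 124 and 111 CPM and rose by 3.17 ± 0.11 on the log2 scale (adjusted p = 2.7e-07, edgeR). The spread between libraries was small for both genes. Hspa1a, at 64.7 and 51.7 CPM, rose by 4.03, and Jun, at 157 and 148 CPM, by 1.27. Fos rose by 3.33 and Hspa1b by 3.80, and without WT replicate 1 their log2 differences were 2.65 and 3.1.

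Within the vessel wall, endothelial-like cells (91 and 71) were set against mural-like cells (112 and 111), which are pericytes and smooth muscle cells. Of the 10 members, 3 were higher and 3 lower in endothelial-like cells, where 30.4% of 10513 genes changed in either direction. Fos was at 20.9 and 3.85 CPM in endothelial-like and 139 and 47.1 CPM in mural-like cells. The 2 classes did not overlap, although Fos varied between libraries, and its log2 change was -2.80 ± 0.64 (adjusted p = 0.010, edgeR). Egr1 fell by 2.31 and Hspa1a by 1.01 on the log2 scale. Atf3 rose by 1.44, Jun by 0.60 and Ier2 by 0.50. This set of calls was the least firm of all comparisons, since DESeq2 called 1 member, Egr1, and after each cell was thinned to 1500 UMIs only 3 members could be tested by edgeR, of which 0 passed adjusted and 0 had an unadjusted p under 0.05. Without WT replicate 1 the log2 difference was -3.44 for Fos and -3.59 for Egr1. With the library as a replicate block Fosb was also called (log2 change -1.37, adjusted p = 0.0069, edgeR).

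Fibroblast-like cells, from the meninges and around vessels, had 9 members higher and Dusp1 lower than neural cells, in a comparison where 24.5% of 17673 genes were higher, 27.4% lower and 51.9% changed in either direction. Fosb, at 56.8 and 17.9 CPM, had its highest mean level of any class here, and rose by 4.59 ± 0.54 on the log2 scale (adjusted p = 0.00027, edgeR). Its libraries differed by a ratio of 3.18, and the fibroblast-like and microglia-like levels overlapped. Fos stood at 56.2 and 29.3 CPM, Egr1 at 49.9 and 29.3 CPM and Jun at 165 and 104 CPM. Dusp1 stood at 9.47 and 8.58 CPM against 14.9 and 16.7 CPM in neural cells, a log2 change of -0.77 ± 0.22 (adjusted p = 0.020, edgeR) that did not pass when likely doublets were left out (adjusted p = 0.063, edgeR). Thinned to 1500 UMIs, 4 of the members passed in place of 10. The share of all genes called was not counted in the thinned fit, so this drop is not particular to the members. Without WT replicate 1 the log2 differences were 3.997 for Fosb, 2.02 for Hspa1a (3.31 with both libraries) and 2.55 for Hspa1b (3.33 with both).

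Set against vascular-like cells directly, microglia-like cells had 6 members higher and 1 lower, with 37.9% of 11443 genes changed in either direction. Hspa1a rose by 4.14 ± 0.20 (adjusted p = 3.0e-07, edgeR) and Hspa1b by 4.02, Atf3 by 1.99, Fos by 1.65, Jun by 1.57 and Egr1 by 1.26 on the log2 scale. Ier2 was lower in microglia-like cells, by 0.83 ± 0.17 (adjusted p = 0.0039, edgeR). Junb, Fosb and Dusp1 did not pass, with log2 changes of 0.08, 0.96 and 0.94. With the library as a replicate block Fosb (adjusted p = 0.025, edgeR) and Dusp1 (adjusted p = 0.048, edgeR) passed as well. The calls of Fos and Egr1 were lost with DESeq2 (adjusted p = 0.37 and 0.065). The log2 difference of Egr1 was 2.39 without WT replicate 1 and 0.40 without WT replicate 6, and that of Hspa1b was 5.12 without WT replicate 1.

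Among neural cells, radial glial cells (RGCs), the stem cells of the cortex, held the highest levels of Fos, Fosb and Jun among the progenitor and neuron classes. RGCs were 8.12% and 7.41% of kept cells and held 28.2% and 28.6% of all Jun UMIs and 23.3% and 26.2% of all Fos UMIs. Jun was at 218 and 201 CPM in RGCs, 48.2 and 36.7 CPM in intermediate progenitor cells (IPCs), which arise from RGCs, and 33.5 and 33.3 CPM in excitatory neurons. The RGC libraries lay close together and well above both other classes. Fos stood at 31.8 and 17.4 CPM in RGCs, 2.92 and 2.29 CPM in IPCs and 2.06 and 1.90 CPM in excitatory neurons. Fosb was at 10.6 and 3.44 CPM in RGCs, with 0 UMIs in IPCs of WT replicate 1, which allows up to 1.46 CPM (3 counts of the class total), and 0.917 CPM in WT replicate 6. Atf3 had 0 UMIs in IPCs of both libraries, which allows up to 1.46 and 1.38 CPM, and was not tested there. In RGCs Atf3 was at 1.71 and 1.38 CPM, close to these limits.

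Between IPCs and RGCs, 33.1% of 13025 genes changed in either direction, 14.9% higher and 18.2% lower in IPCs. Near that total share of all genes, 3 of 9 members tested were lower in IPCs and 0 higher. They were Jun (log2 change -2.23 ± 0.13, adjusted p = 6.5e-06, edgeR), Fos (-3.16 ± 0.49, adjusted p = 0.0014, edgeR) and Fosb (-3.76 ± 1.07, adjusted p = 0.026, edgeR). Without WT replicate 1, the library with 0 Fosb UMIs in IPCs, the Fosb difference was -1.72, and without WT replicate 6 it was -6.45, a value that depends on the prior count. Egr1 stood at 8.76 and 5.05 CPM in IPCs against 18.8 and 9.29 CPM in RGCs, and passed only with the replicate block (log2 change -0.93, adjusted p = 0.013, edgeR), without the filter on low counts or without likely doublets. Ier2 was nearly level, at 22.9 and 19.7 CPM in IPCs and 22.0 and 18.6 CPM in RGCs. Hspa1a in IPCs was at 1.46 and 9.17 CPM, so that 1 library lay below and 1 between the RGC values of 9.81 and 8.60 CPM.

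Excitatory neurons had 8 of 10 members lower than RGCs and Dusp1 higher, in a comparison where 63.5% of 16511 genes changed in either direction and 31.6% were lower. Fos fell by 3.46, Egr1 by 3.33, Fosb by 2.83 (by 1.92 without WT replicate 1), Atf3 by 2.82 and Jun by 2.47 on the log2 scale, and the chaperone genes Hspa1a and Hspa1b by 1.87 each. Ier2 fell by 0.51. Dusp1 was at 16.1 and 17.9 CPM in excitatory neurons and 9.97 and 9.12 CPM in RGCs, a log2 change of 1.01 ± 0.13 (adjusted p = 0.00037, edgeR). Excitatory neurons held 49.2% and 53.4% of all Dusp1 UMIs, close to their 48.4% and 51.5% of the UMIs of all genes. They were 40.5% and 44.0% of kept cells. Junb did not pass, with a log2 change of 0.30 and 3.62 and 3.33 CPM in excitatory neurons.

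GABAergic neurons, which enter the cortex from the ventral telencephalon, had 3 members higher than excitatory neurons and Ier2 lower, of 9 tested. Of 16689 genes, 21.4% were higher, 21.7% lower and 43.1% changed in either direction, so the number of members called was near the share of all genes. Jun stood at 79.5 and 64.2 CPM against 33.5 and 33.3 CPM (log2 change 1.02 ± 0.11, adjusted p = 0.00035, edgeR). Egr1 stood at 5.33 and 2.71 CPM against 1.65 and 0.840 CPM and Fos at 4.68 and 3.58 CPM against 2.06 and 1.90 CPM, and each pair of classes did not overlap. Ier2 was at 9.61 and 6.20 CPM against 13.04 and 12.1 CPM, a log2 change of -0.74. Cells of the GABAergic class were shallower, with medians of 5293 and 4574 UMIs against 8724.5 and 7918.5. Thinned to 1500 UMIs, 2 of the members passed, 1 of them higher and 1 lower, in a fit whose share of all genes was not counted. Fos was among those lost (adjusted p = 0.097, edgeR).

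Ranked by mean level over 8 classes, the members did not share 1 order. Erythroid-like cells and oligodendrocyte precursor-like cells (28 and 18) were gated but left out of this ranking. The latter had Egr1 at 57.0 and 37.4 CPM, and 0 UMIs of Fosb, Junb and Atf3 in both libraries. Microglia-like cells were first for Fos, Jun, Egr1, Atf3, Dusp1, Hspa1a and Hspa1b, fibroblast-like cells for Fosb, mural-like cells for Junb and endothelial-like cells for Ier2. Among microglia-like cells with 0 or 1 macrophage markers, Jun stood at 104 and 138 CPM, below RGCs at 218 and 201 CPM. Dusp1 stood there at 3.05 and 8.62 CPM, below neural cells at 14.9 and 16.7 CPM. Fos (42.7 and 17.2 CPM) and Egr1 (76.2 and 40.2 CPM) lay below mural-like cells. Hspa1a, Hspa1b and Atf3 in these cells still lay above every other class. Neighbours in the order often overlapped between libraries. For Fos, 5 of the 7 neighbouring pairs overlapped, microglia-like and mural-like cells among them, and for Dusp1 6 pairs did. For Jun, Ier2 and Atf3 only 1 pair each overlapped. For Jun the order microglia-like, RGC, endothelial-like held in both libraries for the whole classes. Overlapping pairs were not counted for genes other than the members, so these counts are a description only. Across the 20 sums of 10 classes in 2 libraries, the Pearson r of log2(CPM + 1) between members ran from 0.23 for Dusp1 with Egr1 to 0.97 for Hspa1a with Hspa1b. These sums share libraries and differ in depth, and r is given as a description.

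Shares of cells with a UMI were set beside the levels. After thinning to 1500 UMIs, Jun was found in 26.5% and 22.2% of RGCs, 23.0% and 25.5% of microglia-like cells and 4.91% and 4.46% of excitatory neurons, and in 0 of 24 and 37 erythroid-like cells. Before thinning the values were 63.8% and 65.0%, 46.0% and 44.9%, and 19.5% and 18.3%. Hspa1a was found in 20.7% and 22.4% of thinned microglia-like cells and 0.908% and 0.987% of thinned RGCs. So Jun was found in RGCs about as often as in microglia-like cells, while Hspa1a was not. Of the 26 and 11 thinned RGCs with Fos, 0 had Hspa1a, against 0.945% and 1.01% of those without Fos. At so low a share 0 is the likely count with or without a pairing of both arms. The pairing found in microglia-like cells can therefore not be judged in RGCs at this depth. In vascular-like cells Hspa1a was found in 8 of 15 cells with Fos in WT replicate 1 and in 0 of 5 in WT replicate 6.

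The counting interval of the ratio between the 2 libraries lay away from 1 for some members and spanned 1 for others. With 1 library on each side there is no test, and the intervals given cover counting error only. In neural cells Fos was higher in WT replicate 1 by a ratio of 1.67 (95% exact binomial interval 1.40 to 1.98), Egr1 by 2.02 (1.65 to 2.49) and Hspa1b by 1.97 (1.49 to 2.61). Jun differed by 1.14 (1.09 to 1.20) and Dusp1 by 0.89 (0.81 to 0.98), beside a median ratio of 0.99 over 13416 genes with at least 200 UMIs. Of those genes, 103 had a ratio as high as that of Fos and 42 as high as that of Egr1.

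**Figure D5:**
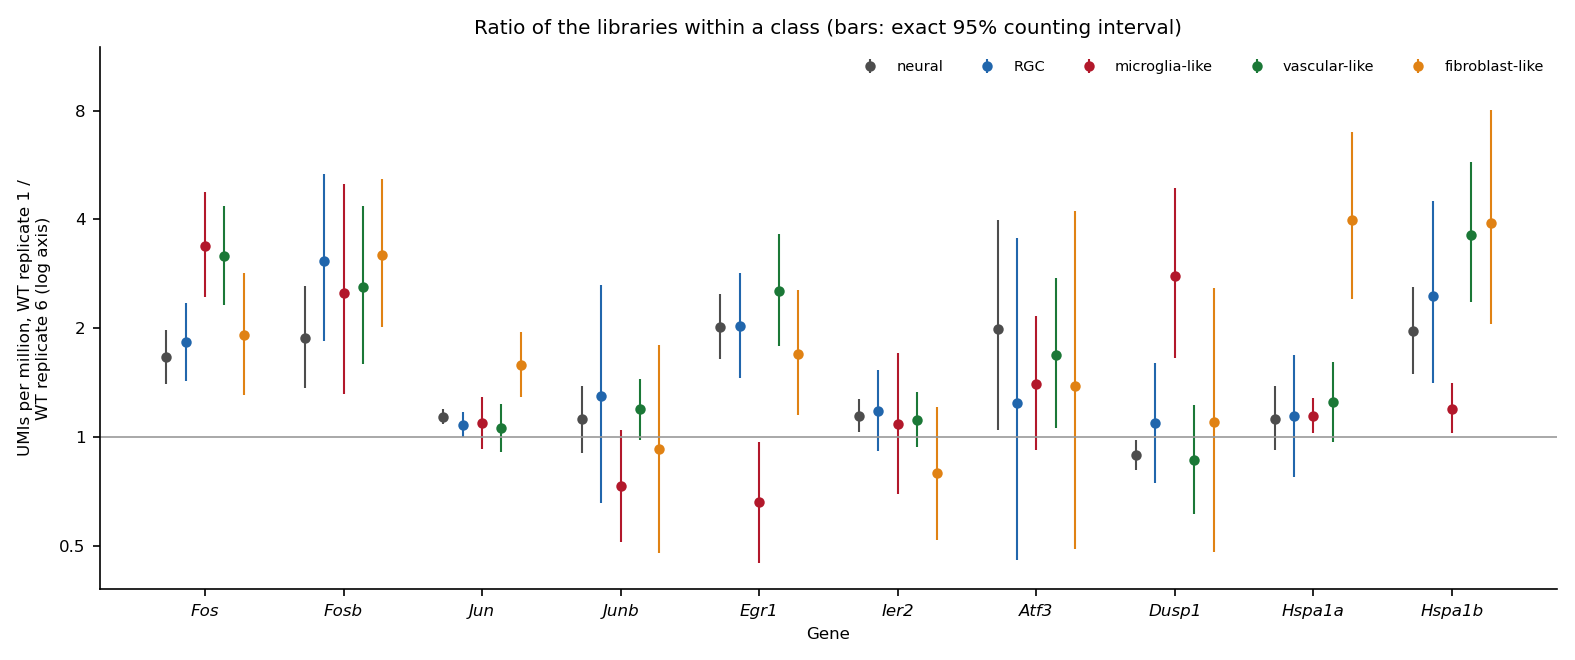
Ratio of CPM between WT replicate 1 and WT replicate 6 within neural, RGC, microglia-like, vascular-like and fibroblast-like cells, on a log axis, with exact 95% counting intervals. Fos and Fosb lie above 1 in each of the 5 classes, Jun lies near 1 in all but fibroblast-like cells (1.59), and Egr1 in microglia-like cells lies below 1 (0.66).

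Outside the neural cells the library ratio of Fos was larger, at 3.39 (2.45 to 4.77) in microglia-like, 3.16 (2.32 to 4.37) in vascular-like and 1.92 (1.31 to 2.85) in fibroblast-like cells. Over 8 separate classes the interval lay above 1 in 5 for Fos and Fosb, in 6 for Egr1 and in 7 for Hspa1b. It did so in 4 for Jun, 3 for Hspa1a, 1 each for Ier2 and Dusp1 and 0 for Junb and Atf3. Below 1 it lay in 2 for Dusp1 and in 1 each for Egr1 and Hspa1a. Such counts were not made over all genes, and a gene with few UMIs has a wide interval. The counts are therefore a description only. Egr1 ran the other way in microglia-like cells, with 49 and 70 UMIs (ratio 0.66, 0.45 to 0.97). Hspa1a and Hspa1b moved apart in vascular-like cells, at ratios of 1.25 and 3.63. The embryo, its sex and any step of its own preparation cannot be told apart here.

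Mitochondrial share and depth were set beside Jun and Hspa1a. Median mitochondrial shares were 3.45% and 3.66% in microglia-like cells and 3.49% and 3.63% in neural cells. In RGCs Jun stood at 217 and 207 CPM below 2% mitochondrial UMIs and at 210 and 223 CPM between 5% and 10%. In microglia-like cells Hspa1a was instead lower at high mitochondrial share, at 19.5 and 434 CPM between 5% and 10% against 1062 and 838 CPM between 2% and 5%, over 13 and 24 against 63 and 63 cells. It was also low in shallow cells of this class, at 0 and 85.3 CPM below 5000 UMIs. These strata were chosen after the values were seen.

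A wider list of 61 genes of the early response and of heat shock, with the members left out, was read from the same fits. Against neural cells, microglia-like cells had 34 of 58 tested genes higher and 5 lower, vascular-like cells 31 of 55 higher and 7 lower, and fibroblast-like cells 24 of 54 higher and 10 lower. Over all genes tested, 20.6%, 26.3% and 24.5% were higher and 24.3%, 27.4% and 27.4% lower. In microglia-like cells, Ccl3 and Ccl4, chemokines of activated microglia, rose by 12.05 and 9.62 on the log2 scale, Hmox1, the heme oxygenase, by 8.55, and Bag3, a co-chaperone of HSP70, by 7.39. Dusp4, Gadd45g, Nr4a2 and Nr4a3 were lower, with log2 changes of -3.29, -2.33, -1.81 and -1.41. In vascular-like cells the largest rises were those of Klf2 (8.81), a flow-responsive endothelial factor, the small heat-shock gene Hspb1 (8.33), Gadd45b (5.90) and Cebpd (5.50), and Mt2, Dusp4, Gadd45g and Nr4a3 fell. In fibroblast-like cells they were those of Hspb1 (7.35), Klf2 (5.99), Ier3 (5.50) and Ccn2 (5.24), whereas Dusp4, Gadd45g, Nr4a3 and Pim1 fell. Of 15 heat-shock and stress genes, 11 were higher and 1 lower in microglia-like cells, and 5 higher and 3 lower in vascular-like cells, the latter near the share of all genes. The difference between these counts was not tested.

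Between the non-neural classes, Ccl4, Ccl3, Hmox1 and Mt1 led the genes higher in microglia-like than in vascular-like cells, by 7.998, 5.93, 5.10 and 3.84, and Ccn2, Hspb1, Gadd45b and Maff led those lower. Endothelial-like cells had Klf2, Klf4, Ier3 and Maff higher than mural-like cells, by 4.73, 3.40, 3.01 and 2.31, and Mt1, Gadd45b, Cebpb and Gadd45g lower. In the neural lineage genes of the wider list moved in both directions. IPCs had Dusp4, Ier5, Gadd45g and Btg2 higher than RGCs, the latter pair being genes of cell-cycle exit, and Ccn1, Ccn2, Mt1 and Mt2 lower. Excitatory neurons had 12 of 52 higher and 19 lower than RGCs, where 31.8% of all genes tested were higher and 31.6% lower, led by Dusp4, Dusp5, Nr4a3 and Fosl2 among the higher and Ccn2, Mt2, Ccn1 and Zfp36l1 among the lower. Fosl2, a further FOS-family gene, rose by 2.59 where Fos fell by 3.46. GABAergic neurons had 9 of 50 higher, led by Gadd45g, Bag3, Zfp36l1 and Hmox1, and 20 lower than excitatory neurons, where 21.4% of all genes tested were higher and 21.7% lower, led by Nr4a3, Nr4a2, Dusp6 and Fosl2.

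The genes whose levels over the 20 sums were most like those of Fos, among 14014 genes with at least 200 UMIs, were Itgb5 (Pearson r = 0.92), Epb41l2, Jdp2, Plxdc2 and Arhgef6. Those most like Hspa1a were Unc93b1 (r = 0.97), Ctsd, P2rx4, Gusb and Cebpb. Jdp2 encodes a partner of JUN proteins, and Ctsd and Gusb encode lysosomal enzymes. The r values are descriptions over sums that share libraries.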

How the data were processed

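Single-cell transcriptomes came from a 10x 3' v3.1 kit, and per the submitters' processing notes the authors ran Cell Ranger 7.0.0 on mm10. What the authors deposited for each library is a matrix of UMI counts, without normalization. The annotation version and whether intronic reads were counted are not given in the sources used here. From these counts, barcodes of 1500 to 60000 UMIs with a mitochondrial share below 10% were used, and a cell entered a class with at least 3 of its 8 markers and a lead of 2 over other groups. Counts were summed per library and class. Sums were compared by edgeR 4.0.16 (R 4.3.3) with TMM scaling, filterByExpr, the quasi-likelihood test and Benjamini-Hochberg adjustment across every gene tested, with an adjusted p under 0.05 called. The script was tested on simulated counts. Levels are CPM, UMIs per 1000000 UMIs of the class. The labels do not say how the libraries relate to embryos and litters, so p-values measure the spread between these 2 libraries.

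Sums of the same number come from the same library, which pairs them, and the correlation of their deviations ran from 0.08 to 0.35 over the 8 comparisons. Intervals of shares are Wilson intervals, and the limit for a count of 0 is 3 counts, both at 95% and for counting error only. The replicates correlated at r = 0.997 and differed beyond sampling noise (chi-square per degree of freedom 26.9). Alternatives were RLE size factors, DESeq2 1.42.0, no filter on low counts, a replicate block, stricter cell filters and gates, Scrublet doublets left out (scanpy 1.11.5), cells thinned to 1500 UMIs, a single fit of all classes, and each library left out. No TMM scaling, the macrophage-marker split and the strata were chosen after the data were seen. The 10 members and all lists were chosen with earlier results of these data known. Genes named beyond the members were the 4 called genes of the wider list with the largest change in each direction of each comparison and the 5 genes most like Fos and Hspa1a. Barcodes left out by the filters entered no comparison, and the knockout was not analysed here.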

Additional observations from a re-analysis of the deposited data

Results flagged for a closer look

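Barcodes that the filters left out of every comparison also held the members. In barcodes with under 1500 UMIs the 10 members summed to 128.7 CPM in WT replicate 1 and 113 CPM in WT replicate 6, and in barcodes with at least 10% mitochondrial UMIs to 105.8 and 110.8 CPM. All 4 values lay below the kept cells, at 183.1 and 144.3 CPM. They also lay above the limit that a count of 0 allows (0.55 to 0.996 CPM), which shows presence and no more. Mitochondrial UMIs are part of each total. The cell types in these barcodes were not assigned, and what the difference rests on was not tested.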

How the results depend on the processing

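Of the counts of members called, 5 moved by over 1.5 times. With cells thinned to 1500 UMIs they were 4 for fibroblast-like against neural cells (main 10), 2 for GABAergic against excitatory neurons (main 4) and 0 for endothelial-like against mural-like cells (main 6, with 3 members left to test), with DESeq2 1 for endothelial-like against mural-like cells, and with no filter on low counts 5 for IPCs against RGCs (main 3). Of the wider list, thinning left 19 called in fibroblast-like against neural cells (main 34), 14 in microglia-like against vascular-like cells (main 22), 7 in endothelial-like against mural-like cells (main 16), 11 in IPCs against RGCs (main 20) and 15 in GABAergic against excitatory neurons (main 29), and DESeq2 left 10 and 13 for the endothelial-like and IPC comparisons. Thinning leaves fewer UMIs and fewer genes to test. The shares of all genes given above belong to the main fits and cannot be set beside the thinned counts. For DESeq2 the cause was not tested. Single calls of members were lost 10 times by thinning and 8 times with DESeq2. With 3000 to 30000 UMIs and under 5% mitochondrial share 5 were lost, and with the stricter gate 2. Without doublets 4 were lost and 2 gained, and without TMM scaling 4 were lost. A single fit of all classes lost 3 and gained 1, and no filter on low counts gained 5.

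Changes of sign touched only values that were not called. Junb in microglia-like against vascular-like cells (0.08) became -0.0725 without doublets, -0.0207 with 3000 to 30000 UMIs and -0.11 without TMM scaling. Ier2 in IPCs against RGCs (0.14) became -0.26 when thinned. Fosb in GABAergic against excitatory neurons (-0.01) became 0.0052 with RLE size factors, 0.39 without doublets and 0.0754 without TMM scaling. With the library as a replicate block, the calls gained were Fosb and Dusp1 (microglia-like against vascular-like), Fosb (endothelial-like against mural-like) and Egr1 (IPCs against RGCs), and the block changed no other call of a member. Leaving out a library leaves no residual degrees of freedom and gives values without a test. Without TMM scaling the median of all genes moved from -0.30 to -0.42 for microglia-like against neural cells, from -0.01 to -0.20 for microglia-like against vascular-like cells and from 0.03 to -0.15 for excitatory neurons against RGCs. Precision is limited by 87 and 98 microglia-like cells and by 2 libraries.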
